A study of Mus musculus with 6 samples.

Results

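Imprinted genes that control embryonic growth were examined in cortex lacking Mest, itself an imprinted gene. Members were the probes whose symbol in the array platform's annotation was Igf2, H19, Igf2r, Dlk1, Meg3, Rian, Cdkn1c, Phlda2, Plagl1 or Grb10. All 10 genes had a probe, giving 13 probes among the 21766 on the array, and all 13 met the filter of values on at least 4 arrays, which 17476 probes met. Meg3 had 3 probes and Grb10 had 2, told apart below by the GenBank entry that the annotation gives for each probe. A probe annotated with both Nctc1 and H19 was not used.

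The mutants were E12.5 mouse embryos that had inherited a targeted Mest allele (also called Peg1) from the father, with LacZ in the gene and exons 3 to 8 removed. Their mothers were wild type, so they kept an intact maternal copy, which is silent. Each of 6 arrays compared RNA of 1 mutant cortex with RNA of 1 wild-type cortex on a two-colour oligonucleotide array. Mutants 3, 5 and 6 carried the dye Cy5 and mutants 1, 4 and 7 carried Cy3. The 6 mutants were separate embryos, but only 3 wild-type cortices (2, 8 and 9) served as partners, each on 1 array of either dye orientation. The label of the array of mutant 3 names wild type 1, which was read as wild type 2. The series title speaks of telencephalons and the sample labels of cortices. Strain and litter were not stated. Each value below is the log2 of mutant over wild type with the array's median set to 0, given for mutants 3, 5 and 6 and then for mutants 1, 4 and 7. A ratio says nothing about how strongly a gene is expressed, so neither the level of a member nor the tissue's identity could be checked. In whole tissue, fewer cells of a type and less RNA per cell cannot be told apart.

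Imprinted genes are transcribed mainly from the allele of 1 parent, and several of them act on growth in opposite directions. The paternally expressed Igf2 encodes a growth factor and the maternally expressed Igf2r a receptor that takes it up for breakdown in lysosomes. H19 is a maternally expressed noncoding RNA next to Igf2, while Cdkn1c and Phlda2 are maternally expressed brakes on growth. Plagl1 is a paternally expressed zinc finger transcription factor known to act on other imprinted genes. The paternally expressed Dlk1 encodes a membrane protein related to Notch ligands and shares a domain with the maternally expressed noncoding RNAs Meg3 and Rian. Grb10 encodes an adaptor that dampens insulin and Igf receptor signalling. Its expressed allele is maternal in most tissues and paternal in neurons, so it was counted in neither class. The classes of the other members were taken as generally described, and the expressed allele was not measured in these cortices.

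Several members are also hosts of microRNAs, which lie inside the annotated spans of these genes. Strands were matched where an annotated transcript start gave the strand of the gene, which was not so for H19. In the RefSeq tables of build GRCm38.p6, H19, Igf2, Meg3 and Rian contain 13 of the mature microRNAs listed and Mest contains the remaining 2. All 15 have different seeds. The mature sequences shown here, 1 or 2 for each host, make visible which small RNAs lie within the genes measured below. The arrays measured the hosts and not the microRNAs. The seed, bases 2 to 8, is in capitals.
mmu-miR-675-5p, in H19 (chr7:142577112-142577133, minus strand): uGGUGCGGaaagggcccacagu
mmu-miR-675-3p, in H19 (chr7:142577078-142577099, minus strand): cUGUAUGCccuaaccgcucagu
mmu-miR-483-3p, in Igf2 (chr7:142654932-142654952, minus strand): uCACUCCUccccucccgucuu
mmu-miR-770-5p, in Meg3 (chr12:109563710-109563731, plus strand): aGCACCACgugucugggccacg
mmu-miR-370-3p, in Rian (chr12:109618305-109618326, plus strand): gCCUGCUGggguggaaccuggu
mmu-miR-335-5p, in Mest (chr6:30741314-30741336, plus strand): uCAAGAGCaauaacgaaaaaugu

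Among the members, the probes of Dlk1 and Rian and 1 of the Meg3 probes (AK018142) had the widest ranges over arrays. These genes lie on chromosome 12 on the same strand, and the 250 bases before their annotated transcript starts are shown for that reason. The Dlk1 window lies inside the annotated span of the gene, which begins at 109452485. The sequences are from RefSeq on GRCm38.p6, in which 8 of the 10 members had an entry with 13 starts in all. H19 and Cdkn1c had none. Capitals mark TATAAA on either strand.
Dlk1 (chr12:109452573-109452822, plus strand): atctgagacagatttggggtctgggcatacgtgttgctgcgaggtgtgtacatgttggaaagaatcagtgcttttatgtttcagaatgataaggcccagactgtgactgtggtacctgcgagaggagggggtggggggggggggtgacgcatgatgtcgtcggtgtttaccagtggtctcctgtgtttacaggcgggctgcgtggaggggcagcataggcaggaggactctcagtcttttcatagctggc
Meg3, first start (chr12:109540746-109540995, plus strand): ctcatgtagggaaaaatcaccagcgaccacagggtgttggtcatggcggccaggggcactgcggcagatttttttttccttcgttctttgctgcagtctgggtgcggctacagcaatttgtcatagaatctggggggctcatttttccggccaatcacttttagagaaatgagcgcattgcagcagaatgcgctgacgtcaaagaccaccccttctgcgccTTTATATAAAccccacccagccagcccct
Meg3, further start (chr12:109545148-109545397, plus strand): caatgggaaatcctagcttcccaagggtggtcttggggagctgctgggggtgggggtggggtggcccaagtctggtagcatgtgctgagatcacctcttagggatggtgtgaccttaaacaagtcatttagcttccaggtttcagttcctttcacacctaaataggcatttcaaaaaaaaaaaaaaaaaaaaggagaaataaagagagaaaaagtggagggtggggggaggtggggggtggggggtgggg
Rian (chr12:109603695-109603944, plus strand): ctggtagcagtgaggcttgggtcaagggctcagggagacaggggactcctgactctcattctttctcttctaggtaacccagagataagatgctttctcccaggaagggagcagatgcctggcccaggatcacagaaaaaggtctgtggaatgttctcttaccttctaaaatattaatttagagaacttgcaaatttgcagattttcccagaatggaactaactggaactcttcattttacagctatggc
The first Meg3 start had overlapping matches on both strands, the nearer beginning 25 bases before the start. Among the 13 starts TATAAA was also found before that of Phlda2, 30 bases before it, so that 2 of 13 held it against 12.4% of 32851 promoters of the same length. The GC box letters GGGCGG stood in 6 of 13 windows against 32.7% of all promoters, and in none of the 4 windows shown. The palindrome GGGGCCCC, searched because Plagl1 binds GC-rich sites, stood in 0 of 13 against 0.889%. These matches are descriptions of letters.

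Values were missing for part of the probes on every array, with 16422 to 19564 probes measured (75.4% to 89.9%), and for 3 of the 78 values of the member probes. Mest lay at -1.36, -1.78 and -1.39, and at -1.50, -2.07 and -1.44, with a fitted ratio of -1.59 (SE 0.13). Even the targeted gene did not pass the adjusted threshold, with an unadjusted p of 3.4e-05 and an adjusted p of 0.60 in limma, so the lack of a call for a member says little about its change. The sign of the deposited values was read from this gene, so its direction is part of that reading. Arrays of the same dye orientation correlated at 0.177 to 0.353 over the probes and arrays of opposite orientation at -0.437 to -0.139; probes are not replicates. Where a member's values differ by orientation, this is therefore stated. No mutant carried both dyes, so a dye effect and differences between embryos cannot be told apart.

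No member passed the test for a difference between mutant and wild type. In limma, 0 of the 17476 probes (0%) had an adjusted p under 0.05, and 0 of the 13 member probes. Without adjustment 687 probes (3.93%) had a p under 0.05, and 1 of them was a member probe, for Meg3. The fitted ratio was above 0 for 5 member probes and below 0 for 8. These signs are relative to the array median: without centring the median of all tested probes was 0.26, and 12 of the 13 member probes lay above 0. With centring, the 95% confidence interval of 12 of the 13 contained 0. The median size of the ratio was 0.14 for the members and 0.14 for all tested probes. The median standard error was 0.13 for members and 0.16 for all probes, and the median SD over arrays was 0.31 and 0.41.

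**Figure D1:**
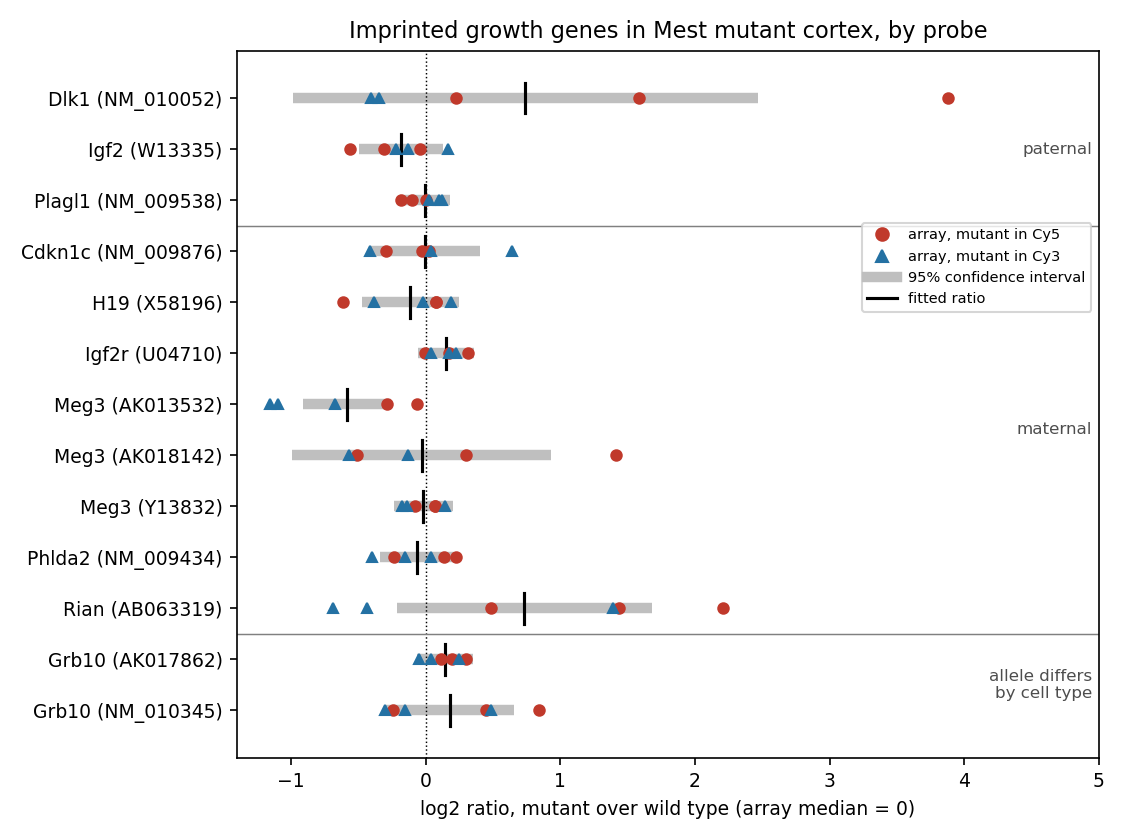
Log2 of mutant over wild type for the 13 member probes, 1 row per probe with its GenBank entry, grouped by the allele expressed. Points are arrays (circles, mutant in Cy5; triangles, mutant in Cy3), grey bars the 95% confidence interval and black ticks the fitted ratio; only the interval of the Meg3 probe AK013532 leaves out 0, and Dlk1 and Rian have the widest spread.

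The growth factor gene Igf2 lay below the array median on 5 of 6 arrays. Its ratios were -0.31, -0.57 and -0.042 with the mutant in Cy5 and -0.14, 0.17 and -0.22 with the mutant in Cy3. The array of mutant 4 alone lay above 0, and the orientations overlapped. The fitted ratio was -0.18 (SE 0.13), or 0.880-fold with a 95% interval of 0.707 to 1.09, and limma gave an adjusted p of 0.90. Without centring of the arrays the ratio was 0.068, so the sign rests on the centring. In the brain Igf2 is known to come largely from meninges and choroid plexus. Of the 21 meningeal and mesenchymal markers listed, 20 were measured, 7 above and 13 below 0, and their mean ranged over arrays from -0.24 to 0.12. Of 10 choroid plexus markers, 8 were measured, 2 above and 6 below 0, with means from -0.37 to 0.17. Their part in the Igf2 ratio was not tested.

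Igf2r, the receptor that clears Igf2, was the member with the most even values above 0. It had 0.17, 0.32 and -0.002 with the mutant in Cy5 and 0.17, 0.23 and 0.037 with the mutant in Cy3. The array of mutant 6 was barely below 0, the other 5 were above it, and the orientations overlapped. The fitted ratio was 0.15 (SE 0.083), or 1.11-fold with an interval of 0.963 to 1.28, and the adjusted p in limma was 0.90. Without centring the ratio was 0.41, and without the arrays of wild type 8 it was 0.095. In an exact two-sided permutation test that flips the signs of arrays p was 0.0625, where 0.0313 is the smallest possible. It treats arrays that share a wild type as independent. Igf2r minus Igf2 was above 0 on each of the 6 arrays, from 0.040 to 0.88 with a mean of 0.34 ± 0.31 (SD, n = 6 arrays). This pair was set apart after its values were seen, so it is given with no test.

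H19 was low on the arrays of 1 wild-type cortex. Its ratios were 0.073, -0.62 and 0.074 with the mutant in Cy5 and -0.021, -0.38 and 0.19 in Cy3. Both low values came from the arrays with wild type 8, and the other 4 lay close to 0 or above it. The fit gave -0.11 (SE 0.14; adjusted p in limma 0.90). H19 minus its neighbour Igf2 averaged 0.070 ± 0.35 (SD, n = 6 arrays), with 4 arrays above 0 and 2 below.

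The probes for Grb10, the adaptor of insulin and Igf receptors, both had fitted ratios above 0. The probe of AK017862 had 0.20, 0.12 and 0.30 in Cy5 and -0.047, 0.041 and 0.25 in Cy3. It lay above 0 on 5 of 6 arrays, with a fit of 0.14 (SE 0.082) and an exact two-sided sign-flip permutation p of 0.094. The probe of NM_010345 had -0.24, 0.84 and 0.45 in Cy5 and -0.30, 0.49 and -0.15 in Cy3, with 3 arrays on either side of 0. The fitted value was 0.18 (SE 0.19), and without the arrays of wild type 8, which are those of mutants 5 and 4, it was -0.062. Without mutant 5 alone it was 0.057 and without mutant 4 alone 0.064, while it was 0.30 without mutant 3 and 0.41 without the arrays of wild type 2. For both probes the adjusted p in limma was 0.90.

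The growth brakes Cdkn1c and Phlda2 lay near 0 on average. Cdkn1c, which encodes an inhibitor of cyclin-dependent kinases, had -0.029, -0.30 and 0.021 in Cy5 and 0.039, -0.42 and 0.64 in Cy3. Mutants 5 and 4 were low, mutant 7 was high, and the fit was -0.0076 (SE 0.16). Phlda2, known for restraining placental growth, had 0.22, -0.24 and 0.13 in Cy5 and -0.16, -0.40 and 0.040 in Cy3. Here too mutants 5 and 4 had the lowest values, and the fit was -0.066 (SE 0.11). The adjusted p-values in limma were 0.99 for Cdkn1c and 0.92 for Phlda2.

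Plagl1, the transcription factor of the group, had the smallest spread of all 13 probes. It had -0.10, -0.19 and 0.002 in Cy5 and 0.098, 0.023 and 0.12 in Cy3. Every Cy5 value lay below every Cy3 value, although they were close together. The fitted ratio was -0.0074 (SE 0.073), or 0.995-fold with an interval of 0.876 to 1.13 (adjusted p in limma 0.99).

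The Dlk1 ratios differed widely between the arrays of the dye orientations, which also hold different embryos. Mutants 3, 5 and 6 (Cy5) gave 0.22, 3.88 and 1.58, mutants 1 and 4 (Cy3) gave -0.41 and -0.34, and mutant 7 had no value. All Cy5 arrays lay above 0 and all Cy3 arrays below, and 1 array stood far above the rest: the deposited ratio of mutant 5 was 25-fold. The fitted genotype ratio was 0.74 (SE 0.64), with an interval of -0.99 to 2.47, and 0.26 without mutant 5. The dye coefficient, Cy5 minus Cy3, was 2.31 (SE 1.05) with an adjusted p in limma of 0.30. No dye coefficient of a member passed that threshold, which 47 probes (0.269%) did. Opposite signs in the orientations were seen at 14.5% of all tested probes and at 1 of 13 member probes, Dlk1.

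The 3 Meg3 probes did not move together. The probe of Y13832 had 0.066, -0.080 and 0.068 in Cy5 and 0.14, -0.14 and -0.17 in Cy3. These are all close to 0, and the fit was -0.019 (SE 0.086), or 0.987-fold with an interval of 0.849 to 1.15. The probe of AK013532 had -0.29 and -0.066 in Cy5, no value for mutant 5, and -1.16, -1.10 and -0.67 in Cy3. It was below 0 on all 5 arrays with a value, but each Cy3 array was lower than both Cy5 arrays. Its fitted ratio was -0.58 (SE 0.12), or 0.667-fold with an interval of 0.531 to 0.837. In limma its unadjusted p of 0.00703 ranked 47 of 17476, and its adjusted p was 0.90.

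Among all tested probes 973 (5.57%) kept 1 sign over their arrays, and among the 13 member probes 1 did, this one of Meg3. Any 5 values of 1 sign give an exact two-sided sign-flip permutation p of 0.0625, so this p adds nothing to the shared sign. Apart from Igf2r and Grb10 (AK017862), given above, the sign-flip p of the other member probes ran from 0.125 (Igf2) to 0.94 (Cdkn1c and Plagl1). The dye coefficient of this Meg3 probe was 0.78 (SE 0.20, adjusted p in limma 0.17). Orientations that did not overlap were found at 5200 tested probes (29.8%) and at 3 of 13 member probes, Dlk1, Plagl1 and this one. The remaining Meg3 probe, of AK018142, had 0.30, 1.41 and -0.51 in Cy5, -0.13 and -0.57 in Cy3 and no value for mutant 7. It lay on both sides of 0 within the Cy5 arrays, and its fit was -0.031 (SE 0.36). Which transcripts of Meg3 each probe detects was not determined.

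Rian, the noncoding RNA that follows Meg3, had 1.43, 2.21 and 0.48 in Cy5 and -0.69, 1.39 and -0.43 in Cy3. The Cy5 arrays were all above 0 and those of Cy3 were split, with mutant 4 among the high values. The fitted ratio was 0.73 (SE 0.38), with an interval of -0.22 to 1.68 and an adjusted p in limma of 0.90. It was 0.41 without mutant 4 and 0.20 without the arrays of wild type 8. Rian minus the mean of the Meg3 probes averaged 0.88 ± 0.92 (SD, n = 6 arrays), and Meg3 minus Dlk1 averaged -1.08 ± 1.39 (SD, n = 5 arrays). The Meg3 mean was not made of the same probes throughout. For mutant 5 it was 0.67 without AK013532, and for mutant 7 it lacked AK018142. No direction was shared by the 5 probes of this domain.

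**Figure D2:**
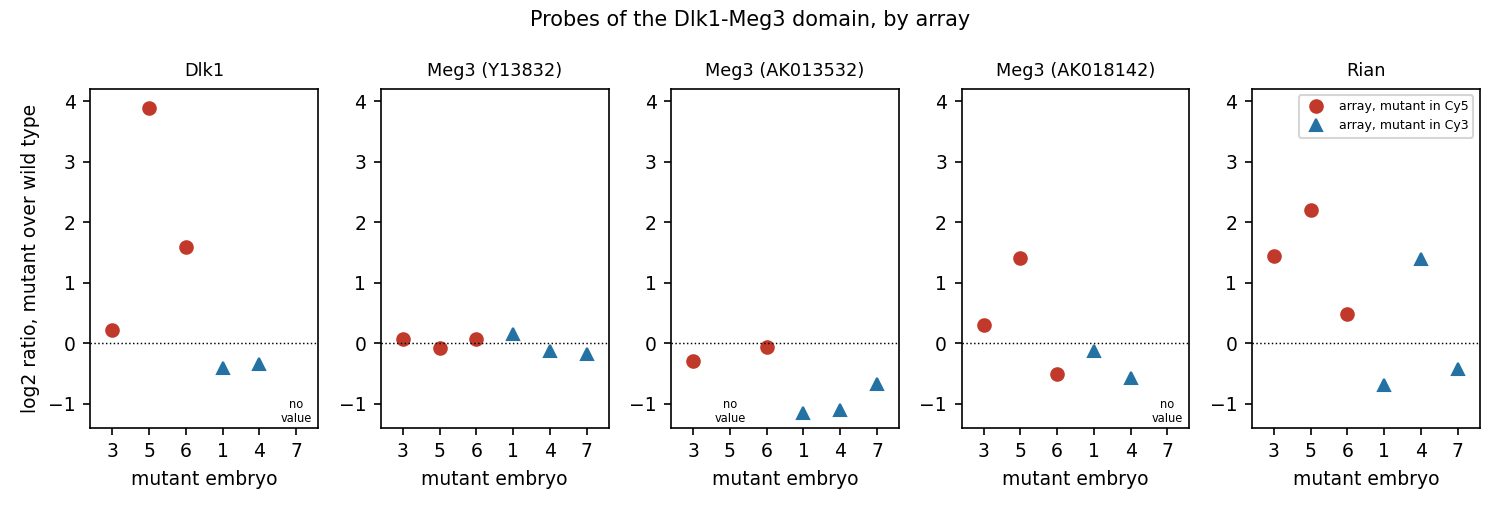
Log2 of mutant over wild type for Dlk1, the 3 Meg3 probes and Rian, by mutant embryo (circles, mutant in Cy5; triangles, mutant in Cy3; missing arrays are written in). Dlk1 runs from -0.41 to 3.88 and Rian from -0.69 to 2.21, while Meg3 (Y13832) stays between -0.17 and 0.14 and Meg3 (AK013532) is below 0 on its 5 arrays.

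The maternally and paternally expressed members were compared as averages on each array, without a test. The mean of the 6 maternal genes was 0.32, 0.34 and 0.090 with the mutant in Cy5 and -0.17, -0.031 and 0.0076 in Cy3. The mean of the 3 paternal genes was -0.064, 1.04 and 0.52 in Cy5 and -0.15, -0.052 and -0.050 in Cy3, where Dlk1 was missing for mutant 7. In both classes the high values were on Cy5 arrays. Over the 6 arrays the maternal mean was 0.092 ± 0.20 and the paternal mean 0.21 ± 0.47 (SD, n = 6 arrays). Maternal minus paternal was 0.38, -0.70 and -0.42 in Cy5 and -0.024, 0.021 and 0.058 in Cy3, or -0.12 ± 0.39 (SD, n = 6 arrays). The difference lay above 0 on 3 arrays and below on 3.

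Single genes carried these averages. Without Rian and Dlk1 the maternal mean was -0.036, the paternal mean -0.096 and their difference 0.060. Without mutant 5 the difference was 0.0019 and without the arrays of wild type 8 it was -0.0029, whereas it was -0.21 without mutant 3, -0.054 without mutant 6 and -0.26 without the arrays of wild type 2. Leaving out Igf2r gave a maternal mean of 0.079 and a difference of -0.13. Medians over genes instead of means gave -0.039 for the maternal and -0.075 for the paternal class. Over all 6 arrays the difference of the means was smaller than its SD.

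**Figure D3:**
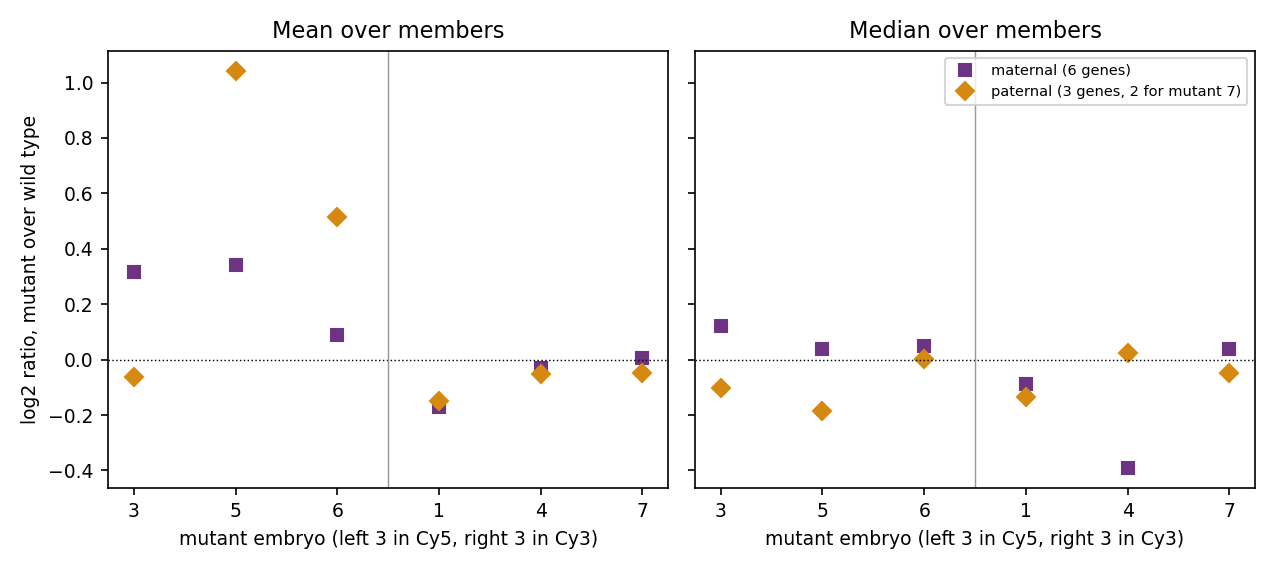
Mean (left) and median (right) log2 ratio over the maternally expressed members (squares, 6 genes) and the paternally expressed members (diamonds, 3 genes, 2 for mutant 7), by mutant embryo. The means of both classes are highest on arrays with the mutant in Cy5, up to 1.04 for the paternal class on mutant 5, and the medians run from -0.39 to 0.12.

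The maternally expressed H19, Phlda2 and Cdkn1c had their lowest ratios on the same arrays. Each was lower on both arrays of wild type 8, which carry opposite dyes, than on the other 4, with averages of -0.50, -0.32 and -0.36 there. Among probes with 6 values, 1162 of 13531 (8.59%) and 3 of 10 member probes had this order. The reverse order, both arrays of wild type 8 above the other 4, was found at 11.1% of probes and at 2 of 10 member probes, Igf2r and Grb10 (NM_010345). Both arrays of wild type 9 lay above the other 4 at 4.31% of probes, among them H19 and Grb10 (AK017862). They lay below the other 4 at 5.32%, among them Igf2r. Those of wild type 2 lay below at 6.81%, among them Grb10 (NM_010345), and above at 5.76%, with no member. The grouping by wild type 8 was noticed in the values and has no test. With the probes of a gene averaged, H19 and Phlda2 were the closest pair of member genes. Their root mean square distance was 0.19 over the 6 arrays, with the same sign on all 6. It was not compared with pairs of other genes, and single probes can lie closer. Without the arrays of wild type 8 the ratios of H19, Phlda2 and Cdkn1c were 0.079, 0.060 and 0.17. A high level in that wild-type cortex and low levels in mutants 5 and 4 cannot be told apart.

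**Figure D4:**
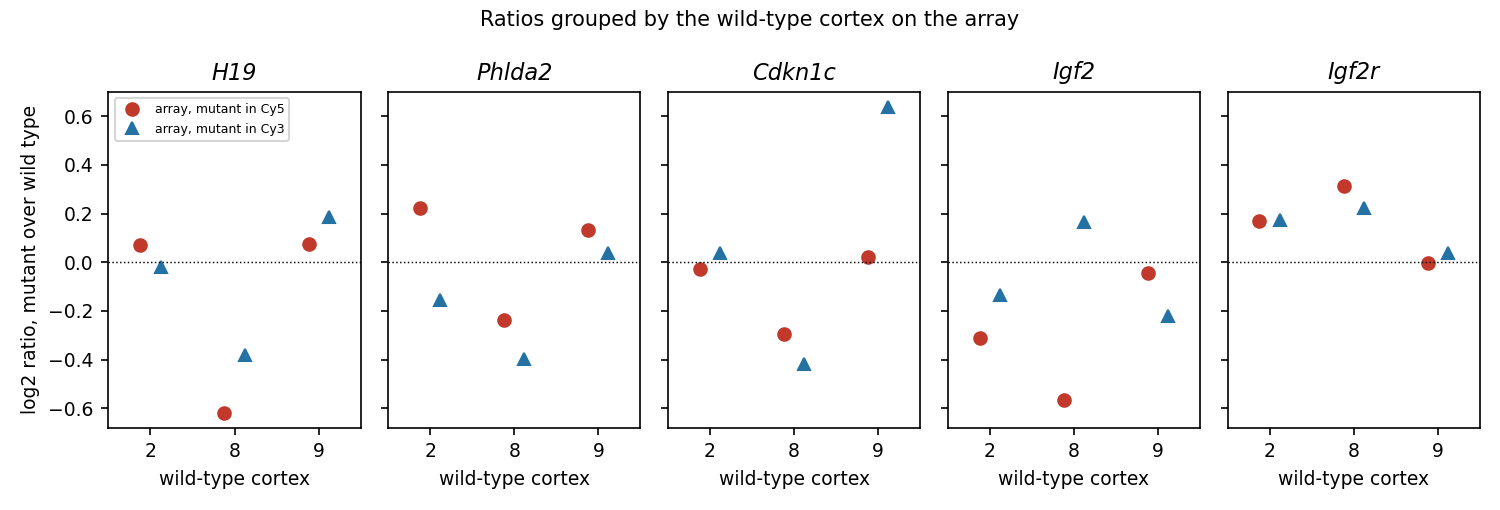
Log2 of mutant over wild type for H19, Phlda2, Cdkn1c, Igf2 and Igf2r, placed by the wild-type cortex that shared the array (circles, mutant in Cy5; triangles, mutant in Cy3). H19, Phlda2 and Cdkn1c have both of their lowest values with wild type 8, Igf2r both of its highest, and Igf2 neither.

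Other genes of the same pathways gave no call either. Of 44 genes listed for the Igf and insulin axis 36 were measured, 19 above and 17 below 0 with a median of 0.023, beside a median of 0.0013 over all 12576 genes, 6319 above and 6257 below. The members of smallest p were Pappa, a protease that frees Igf from its binding proteins, at 0.20, the insulin receptor gene Insr at -1.09 on 5 arrays, and Tsc2, a brake on mTOR, at -0.17. Insr spanned -3.64 to 0.58 over its arrays, while Tsc2 was below 0 on 6 of 6. Of 17 cell cycle partners of Cdkn1c 16 were measured, 10 above and 6 below 0 with a median of 0.040. The kinase gene Cdk6 lay at 0.16 and above 0 on 6 of 6 arrays, the cyclin gene Ccne2 at 0.21 and the transcription factor gene E2f1 at 0.11. Of 16 enzymes and regulators of the imprint 11 were measured, 7 above and 4 below 0 with a median of 0.050. Zfp57, which protects imprints in the early embryo, lay at 0.43, and the Polycomb genes Ezh2 and Suz12 at 0.15 and 0.12. None of these probes had an unadjusted p under 0.05 in limma, and the adjusted p of those named was 0.90.

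Neighbours of the members in their imprinted domains were evenly split, with 14 above and 13 below 0 among 27 measured of 38 listed and a median of 0.0039. In limma 3 of their 29 probes had an unadjusted p under 0.05, against 3.93% of all tested probes, and the adjusted p of each was 0.90. Nap1l4, a histone chaperone gene near Phlda2, had -0.88, -0.33 and -0.71 in Cy5 and -0.30, -0.075 and -0.63 in Cy3. It was below 0 on 6 of 6 arrays with overlapping orientations, and its fit was -0.49 (SE 0.12). Wars, a tRNA synthetase gene near Dlk1, was also below 0 on 6 of 6, with a fit of -0.26 (SE 0.098). A Kcnq1 probe, for a potassium channel gene near Cdkn1c, read 0.22 and 0.37 for mutants 3 and 6 (Cy5). It read -0.79, -1.02 and -0.94 for the Cy3 mutants, so its fit of -0.32 came with opposite signs by orientation. The other Kcnq1 probes, with values on 6 arrays, had fits of 0.099 and -0.090.

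The genes most like Igf2 over the 6 arrays were Lrr1, Ubl4a and Trav4d-3, with root mean square distances of 0.11 each against a median of 0.44 over 10946 candidates. Those most like Rian, the member with the widest range on 6 arrays, were Zfp74, Aff2 and Ccdc117 at 0.47, 0.51 and 0.52 against a median of 1.30. With 6 arrays of mixed dye such rankings only describe these arrays.

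Markers of other cells also differed between arrays. The choroid plexus list had its lowest means on the arrays of wild type 2, at -0.37 on both, and 0.17 and 0.16 on those of wild type 8. Ttr, the transthyretin gene that marks choroid plexus, lay at -0.34 and Aqp1 at 0.088, while the Kl probes lay at -0.20 and 0.059. The meningeal genes Mgp and Postn lay at -0.24 and -0.54, but the Pdgfra probes at 0.66 and 0.16. Of 14 endothelial and pericyte markers 12 were measured, 6 above and 6 below 0. Their array means were 0.058, 0.068 and 0.17 in Cy5 and -0.27, -0.20 and -0.28 in Cy3. Means of the Igf and insulin axis, cell cycle and neighbour lists were also lower on every Cy3 array than on any Cy5 array. Esam and Kdr, the endothelial genes of smallest p in limma, lay at -0.43 and -0.21. Of 14 red blood cell markers 10 were measured, 2 above and 8 below 0, with array means from -0.53 to -0.044 and Hbb-bh1 at -0.36. In limma 4 of their 12 probes had an unadjusted p under 0.05, all with ratios below 0, against 3.93% of all tested probes. Of 16 cortical progenitor and neuron markers 15 were measured, 7 above and 8 below 0 with a median of -0.0026. The Pax6 probes lay at 0.13 and -0.036, Fabp7 at -0.20 and Tbr1 at -0.13. The adjusted p in limma was 0.90 to 0.96 for all markers named. The part of these cells in the members' ratios was not tested.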

How the data were processed

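The authors deposited log2 ratios of 6 arrays, hybridised with Trizol RNA in both dyes, per the labels. How spots were scanned, filtered and normalized is not given in the sources used here. Scale and direction are not stated either: from their range and from Mest they were taken as log2 Cy5 over Cy3. Without spot intensities, dim or saturated spots were not removed. The number of arrays limits the precision.

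Values at the ceiling of 16.61 (590) were set missing and 232 Gapdh control spots left out. Ratios were turned to mutant over wild type and centred on each array's median. The fit in limma 3.58.1 (R 4.3.3) took probes measured on 4 or more arrays, 2 or more of each orientation, with an intercept, a dye term and the wild-type cortex as random block (correlation 0.25). P-values were adjusted by Benjamini-Hochberg over all 17476 probes, threshold 0.05. Exact sign-flip tests were two-sided and treat arrays that share a wild type as independent. Intervals and tests cover the spread between these arrays. The fit was also run on simulated data with normal noise and planted changes larger than any fitted ratio of a member. That run therefore says nothing about changes of the size seen in the members.

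A gene's value is the mean of its probes. Symbols came from the platform annotation (16632 probes with 1 symbol, 139 with several, 4995 with none), and looking them up by Entrez identifier changed 0. The allele classes are textbook knowledge. Named genes were all members and their probes, Mest, up to 3 genes of smallest p of each list, and the 3 genes closest to Igf2 and to the widest member with 6 values. Members and lists were chosen with earlier results of these data known.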

Additional observations from a re-analysis of the deposited data

Results flagged for a closer look

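Dlk1 had opposite signs in the dye orientations on every array with a value. The mean with the mutant in Cy5 exceeded that with the mutant in Cy3 by 2.27 on the log2 scale (3 against 2 arrays). In limma the adjusted p of its dye coefficient was 0.30, above the threshold, and 14.5% of tested probes had opposite signs in this way. No member value stood far enough from the rest of its 6 or 5 arrays to be listed as an outlying sample.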

How the results depend on the processing

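In each of the 19 alternative fits 0 probes and 0 member probes passed the adjusted threshold in limma; at an unadjusted p under 0.05 there were 223 to 2761 probes. Of 232 ratios of single member probes under these fits, 38 changed sign. These were 7 each without centring and with centring on Gapdh, 6 without the arrays of wild type 8, 5 without mutant 5 and 13 in the other fits. The median of all tested probes was 0.0069 as reported, 0.26 without centring and 0.26 with centring on the Gapdh control spots, and 12 of 13 member probes then lay above 0 (84.6% and 84.5% of all probes). Probes at an unadjusted p under 0.05 were 280 higher and 407 lower as reported, 179 and 44 without centring, and 2671 and 90 centred on Gapdh. Without centring and centred on Gapdh, in that order, Igf2 lay at 0.068 and 0.076, H19 at 0.14 and 0.15, Phlda2 at 0.19 and 0.20, Cdkn1c at 0.24 and 0.25, Plagl1 at 0.25 and 0.25, Meg3 (Y13832) at 0.23 and 0.24, Meg3 (AK018142) at 0.18 and 0.24, and the maternal mean at 0.34 and 0.35. Differences between members measured on the same arrays do not depend on it.

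Leaving out the arrays of wild type 8 turned Phlda2 to 0.060, Cdkn1c to 0.17, Plagl1 to 0.030, Meg3 (Y13832) to 0.026, H19 to 0.079 and Grb10 (NM_010345) to -0.062. These fits used the block correlation of all arrays, since 4 arrays gave none. Meg3 (AK018142) lay at 0.025 without the block, 0.11 without the dye term and 0.25 without wild type 9, and Plagl1 at 0.00061 after quantile normalization and 0.0025 after scaling. With single arrays left out, Meg3 (AK018142) ranged from -0.23 to 0.25, Phlda2 from -0.11 to 0.0031, Cdkn1c from -0.13 to 0.12, Plagl1 from -0.027 to 0.015, Meg3 (Y13832) from -0.065 to 0.017 and H19 from -0.17 to 0.00064. Without mutant 5, 10 member probes lay above 0 and 3 below. Igf2r, Rian, Dlk1, Grb10 (AK017862) and Meg3 (AK013532) kept their sign under each alternative in which they could be fitted; their ranges were 0.095 to 0.41, 0.20 to 1.09, 0.26 to 1.10, 0.076 to 0.40 and -0.71 to -0.35. The unadjusted p of Meg3 (AK013532) ran from 0.00496 to 0.19 in limma. The maternal minus paternal difference ranged from -0.26 to 0.060. The cause of these moves was not tested. Small changes could not be shown at this number of arrays. Leaving out Rian and Dlk1 together was chosen after seeing the data. Arrays were paired by their shared wild-type cortex, the random block; without it 1119 probes had an unadjusted p under 0.05, against 687.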
